A study of Rattus norvegicus with 6 samples.

Results

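The family of miR-148 and miR-152 was followed in rat myocardium after infarction. Members were taken by name, as every miRNA on the array whose name starts with rno-miR-148 or rno-miR-152 (rno marks the rat), in either arm of the precursor. The rule found 6 of the 758 miRNAs on the array, which were miR-148a-3p, miR-148a-5p, miR-148b-3p, miR-148b-5p, miR-152-3p and miR-152-5p. A probe was counted as detected where its signal was over 3 times its error, and the signal of a miRNA was the sum over its detected probes. The members that could be compared were chosen by these probe signals, which are given as a description. They were 2 of the 6, rno-miR-152-3p and rno-miR-148b-3p, written below without the prefix, and the other 4 were not detected on any array.

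The samples were myocardium of 6 male Sprague–Dawley rats, 3 in each group and 1 rat per array, collected 4 weeks after the operation. In the model group a ligature had closed the left anterior descending coronary artery, and the tissue came from the edge of the infarct. The control group was sham-operated, with a thread passed and not tied, and the labels do not say from which region its myocardium came. Ages are not given in the sources used here. RNA was labelled with the dye Cy3 and hybridized to Agilent Rat miRNA arrays, which use 1 colour, all 6 on 1 slide with 1 scan time. Row 1 of the slide held model array 1 beside the controls, and row 2 held model arrays 2 and 3. The arrays detected between 206 and 222 miRNAs, and their 75th percentile signals, used for scaling, ran from 145 to 203.

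MiRNAs bind messenger RNAs mainly through the seed, a short stretch near the 5′ end, and lower the stability or translation of their targets. The 3p strands of the family have a single seed, and its best known targets are the transcripts of DNA methyltransferases, the enzymes that place and keep methyl groups on cytosines. By the gene spans of RefSeq on the rat assembly GRCr8, Mir152 lies within the span of Copz2 and Mir148b within the span of Copz1, paralogous genes for the zeta subunit of the COPI coat of transport vesicles, while Mir148a overlaps no listed gene.

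The mature 3p sequences are shown because they are the functional strands of the family and are nearly alike. They were read from RefSeq on GRCr8, which held 5 of the 6 names, and are written 5′ to 3′ with the seed (bases 2 to 8) in capitals.
miR-152-3p: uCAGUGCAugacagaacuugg
miR-148b-3p: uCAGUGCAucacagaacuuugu
miR-148a-3p: uCAGUGCAcuacagaacuuug
They lie at chr10:82329435-82329455 on the plus strand, chr7:136299930-136299951 on the plus strand and chr4:81664447-81664467 on the minus strand. Counted from the 5′ end, all 3 are identical over bases 1 to 8 and 11 to 19. From miR-152-3p to miR-148b-3p the differences were G10C and G20U, with 19 of 21 bases identical. From miR-152-3p to miR-148a-3p they were U9C, G10U and G20U, and from miR-148b-3p to miR-148a-3p they were U9C and C10U. Of the 685 miRNAs on the array with a mature sequence, only these 3 carried the seed.

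The same letters also occur shifted by 1 base in miR-130a-3p, miR-130b-3p and miR-301b-3p, whose own seeds are therefore different. The sequence of miR-301a-3p was not in the sources used here and was not checked. miR-130a-3p and miR-301b-3p are shown for comparison, again with bases 2 to 8 in capitals.
miR-130a-3p: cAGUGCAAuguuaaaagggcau
miR-301b-3p: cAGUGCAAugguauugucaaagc
miR-130a-3p lies at chr3:90229240-90229261 on the minus strand and miR-301b-3p at chr11:97384077-97384099 on the plus strand of GRCr8. In all, 12 of the 685 sequences (1.75%) held CAGUGCA at some position, read on the miRNA strand alone.

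**Figure D1:**
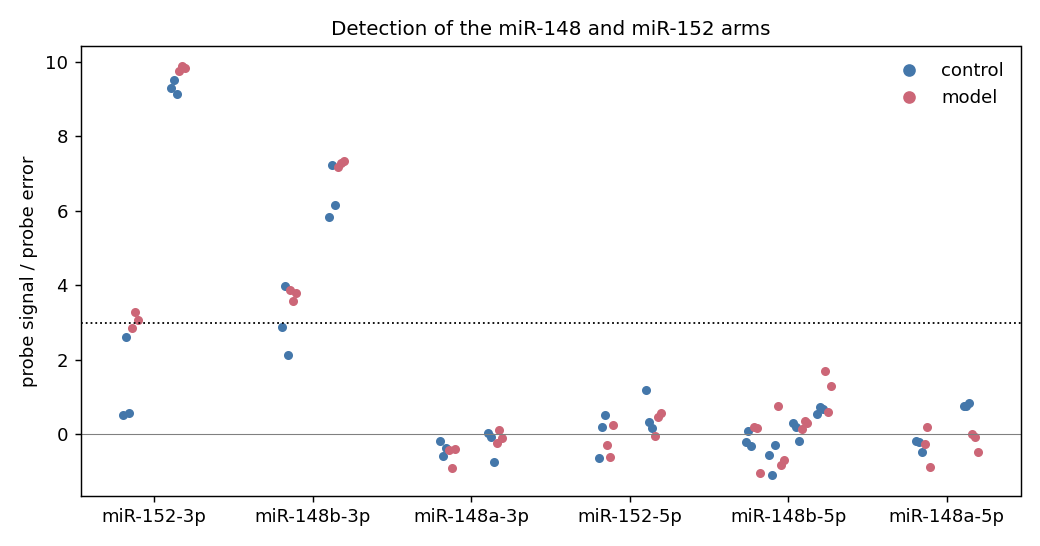
Signal divided by its error for each of the 14 probes of the 6 miR-148 and miR-152 names, 1 column of points per probe and 1 point per array, with the dotted line at the detection limit of 3. The brighter probes of miR-152-3p and miR-148b-3p lay above 5 on every array, their dimmer probes lay between 0.51 and 3.99, and the probes of the other 4 names stayed at 1.70 or less.

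The third 3p strand, miR-148a-3p, stayed at background in both groups. Its 2 probes read between -0.80 and 0.11 on the 6 arrays, with 10 of 12 readings below 0 and none above 0.12 times its error. The brighter probe of miR-148b-3p, whose sequence is the same at 19 of 21 bases, was detected on all 6 arrays. The 5p arms, which in this family are taken as the passenger strands, were at background as well. The readings ran from -0.60 to 1.11 for miR-152-5p, from -0.53 to 0.77 for miR-148b-5p and from -0.63 to 0.72 for miR-148a-5p. The highest ratio of signal to error among the 60 readings of the 4 undetected names was 1.70, in miR-148b-5p, against 5.83 for the lowest reading of the brighter probe of miR-148b-3p. No fold change is given for these 4 names, since both groups were under the detection limit.

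miR-152-3p was higher in the model group. Its brighter probe read 23.8, 30.2 and 19.7 on control arrays 1, 2 and 3 and 41.5, 57.3 and 40.7 on model arrays 1, 2 and 3, before any scaling between arrays. The lowest model array thus exceeded the highest control array, and model array 2 was the highest of all. The 8 spots of this probe varied within an array by 2.86% to 6.80% (coefficient of variation). The dimmer probe read 0.48, 2.58 and 0.48 for the controls, against 2.68, 3.07 and 2.32 for the model arrays. It passed the detection limit on model arrays 2 and 3 only, at 3.28 and 3.06 times its error, and missed it on model array 1 at 2.86 and on control arrays 1, 2 and 3 at 0.51, 2.61 and 0.56. The dimmer probe made up 1.98% to 7.88% of the sum over both probes, so the sum follows the brighter one.

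**Figure D2:**
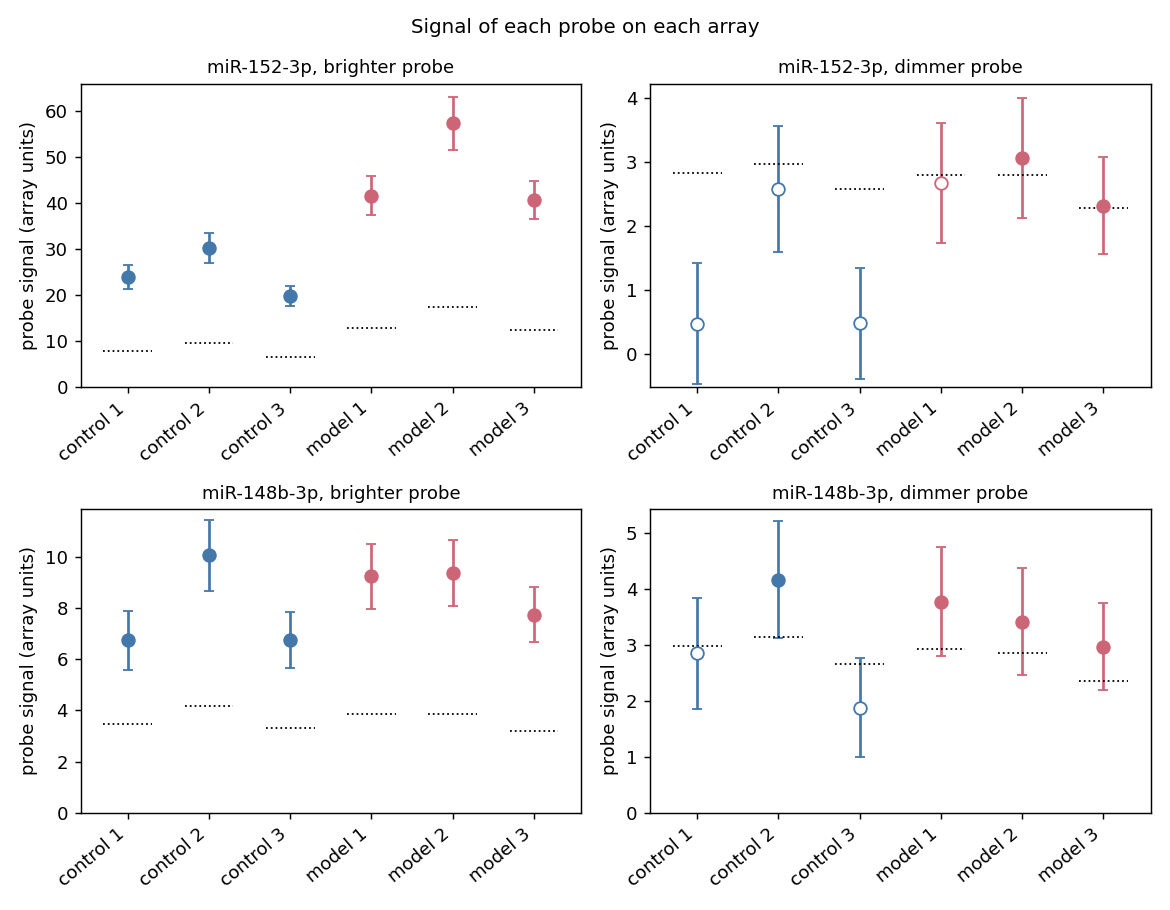
Signal of each probe of miR-152-3p and miR-148b-3p on each array, with the probe error given by the scanner software as the bar and the detection limit of 3 errors as the dotted line. Filled points are detected and open points are not. For the brighter miR-152-3p probe the 3 model arrays lay between 40.7 and 57.3, above the control arrays at 19.7 to 30.2, while both probes of miR-148b-3p overlapped between groups.

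After each array was divided by its 75th percentile, the log2 signal of miR-152-3p averaged -2.71 ± 0.15 (SD, n = 3) for the controls, and -1.98 ± 0.31 (SD, n = 3) for the model group. The log2 fold change was 0.73 (standard error 0.18, 95% interval 0.30 to 1.17), a fold of 1.66. Its adjusted p was 0.0335 in limma with Benjamini-Hochberg adjustment over 214 miRNAs. This sum counts the dimmer probe on model arrays 2 and 3 alone. With all probes summed the log2 fold change was 0.70 (adjusted p = 0.0254, limma). With the brighter probe alone it was 0.76 (adjusted p = 0.0137, limma). Of the 2 members compared, 1 was called higher and none lower, beside 22 (10.3%) called higher and 27 (12.6%) called lower among all 214 miRNAs, 22.9% in all. Its groups did not overlap, as was the case for 16.4% of the 214 with the model group above and for 30.8% with it below. In bulk tissue, more cells that contain the miRNA and more miRNA per cell cannot be told apart. The 198 miRNAs found on all arrays had a median log2 fold change of -0.15, and relative to it miR-152-3p stood at 0.88. The adjusted p ran from 0.0127 to 0.280 over the 23 alternatives tried. Without control array 1, 2 or 3, or model array 2 or 3, it was between 0.0793 and 0.0887 with log2 fold changes of 0.58 to 0.76, so the call was lost when any 1 of these 5 arrays was left out. Within row 1 of the slide, model array 1 lay 0.42 log2 units above the mean of the control arrays. Row 2 held no control, so a fit with the row as a block rests on model array 1 alone and adds nothing to this value.

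No difference between the groups was shown for miR-148b-3p. Its brighter probe read 6.74, 10.1 and 6.77 for the controls, against 9.25, 9.39 and 7.76 for the model arrays. Control array 2 was the highest of the 6, so the groups overlapped. The dimmer probe read 2.84, 4.16 and 1.87 for the controls, against 3.76, 3.41 and 2.96 for the model arrays. It missed the detection limit on control array 1, at 2.87 times its error, and on control array 3, at 2.12. The sum of detected probes was therefore 6.74, 14.2 and 6.77 in the control group, with the dimmer probe counted on control array 2 alone, and 13.0, 12.8 and 10.7 in the model group, with both probes counted throughout. Its log2 fold change was 0.24 (standard error 0.20, 95% interval -0.26 to 0.74, adjusted p = 0.377 in limma). When all probes were summed, detected or not, the control arrays read 9.59, 14.2 and 8.64 and the log2 fold change was -0.042 (adjusted p = 0.785), and with the brighter probe alone it was 0.022 (adjusted p = 0.881). Without control array 2 the log2 fold change of the detected sum was 0.47 with an adjusted p of 0.0282, a value in which neither remaining control array counts the dimmer probe.

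**Figure D3:**
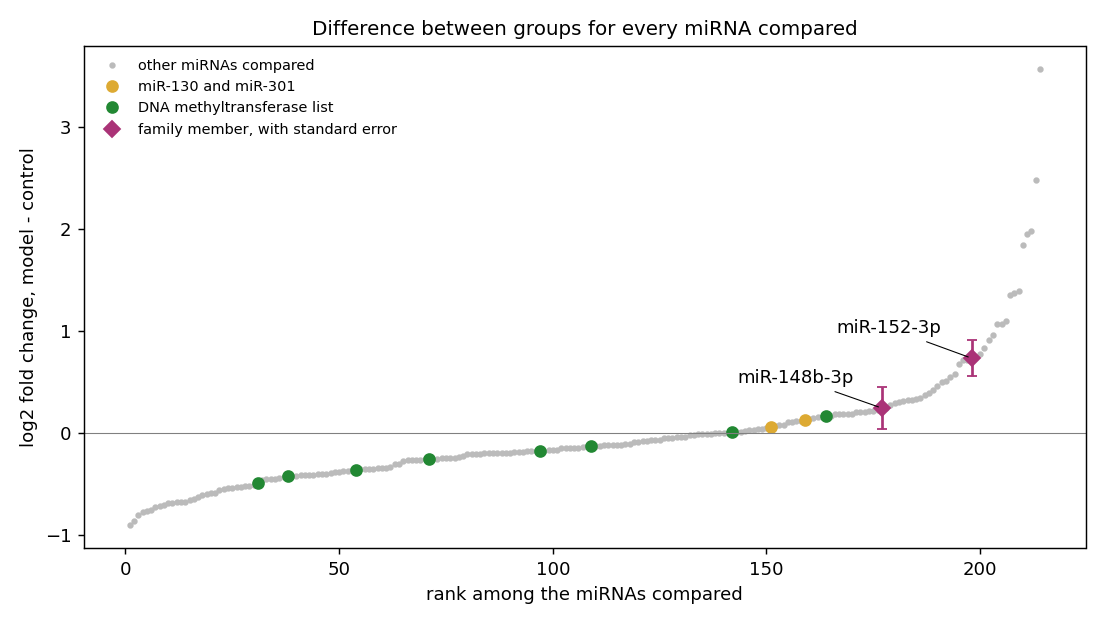
Log2 fold change between the model and control groups for the 214 miRNAs compared, ordered from lowest to highest. Diamonds with standard errors mark miR-152-3p at 0.73 and miR-148b-3p at 0.24, and coloured points mark the detected miR-130 and miR-301 miRNAs and the miRNAs known for DNA methyltransferase targets, which lay between -0.49 and 0.17.

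The 2 members were then set against each other within each array, where scaling between arrays plays no part. The level of this ratio reflects different probes and is not a ratio of amounts, but its change between groups shows whether the members changed unequally. With all probes summed, the log2 ratio of miR-152-3p to miR-148b-3p was 1.34, 1.20 and 1.22 for the controls, against 1.76, 2.24 and 2.00 for the model arrays. The groups did not overlap, and the means differed by 0.75 (p = 0.10 in a two-sided exact permutation test, where 3 arrays against 3 cannot give a smaller p). With the brighter probes alone the difference was 0.74, again without overlap and with an exact permutation p of 0.10. The sums of detected probes were the measure used in the limma fit. They leave out the dimmer probe of miR-148b-3p on control arrays 1 and 3. The dimmer probe of miR-152-3p is counted on model arrays 2 and 3 alone. With these sums the ratio was 1.82, 1.08 and 1.54 for the controls, against 1.67, 2.24 and 2.00 for the model arrays. There the groups overlapped, and the difference was 0.49 (exact permutation p = 0.20). Within row 1 of the slide, model array 1 alone was 0.19 above the mean of the controls in these sums of detected probes. With all probes summed it was at 1.76 against a control mean of 1.26. With the brighter probes alone it was at 2.17 against a control mean of 1.65.

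The total signal that the scanner files give for each miRNA was not the sum of its own probes for these members. On the arrays where only 1 of the 2 probes was detected, the deposited total also held the total of the detected miRNA that comes before it in name order. For miR-152-3p this was miR-151-5p, on 4 arrays. The deposited totals were 216, 285, 205 and 277 on control arrays 1, 2 and 3 and model array 1, of which 85.0% to 90.4% was the signal of miR-151-5p, and 60.4 and 43.0 on model arrays 2 and 3, where nothing was added. In these totals miR-152-3p had a log2 fold change of -1.28 (adjusted p = 0.221, limma), opposite in direction to its own probes. For miR-148b-3p the added signal was that of miR-146b-5p, on control arrays 1 and 3, where it made up 60.6% and 60.8% of totals of 17.1 and 17.3. Its log2 fold change in the totals was -0.31 (adjusted p = 0.377). In each of the 6 cases the extra signal equalled the preceding total within a relative tolerance of 0.0001.

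**Figure D4:**
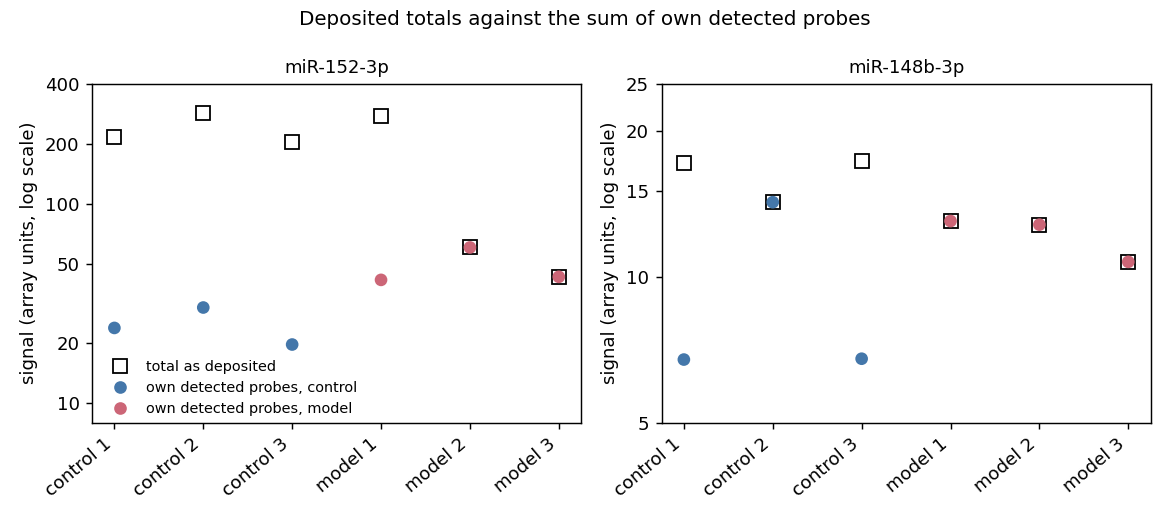
Total signal as deposited (squares) and sum over its own probes that were detected (points) on each array, on log axes, for miR-152-3p and miR-148b-3p. Squares and points coincide where both probes were detected, and elsewhere the squares lie higher by the signal of miR-151-5p or miR-146b-5p.

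The authors' normalized log2 values had the direction of the sum over the own probes of each miRNA, not that of the deposited totals. For miR-152-3p they were 4.71, 4.68 and 4.50 for the controls, against 5.33, 5.79 and 5.49 for the model group, without overlap, with a log2 fold change of 0.91 (adjusted p = 0.0127, limma). For miR-148b-3p they were 3.08, 3.61 and 3.05 for the controls, against 3.57, 3.52 and 3.59 for the model group. Control array 2 was again the highest of its 6 values, and the log2 fold change was 0.32 (adjusted p = 0.248). How these values were normalized is not given in the sources used here.

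**Figure D5:**
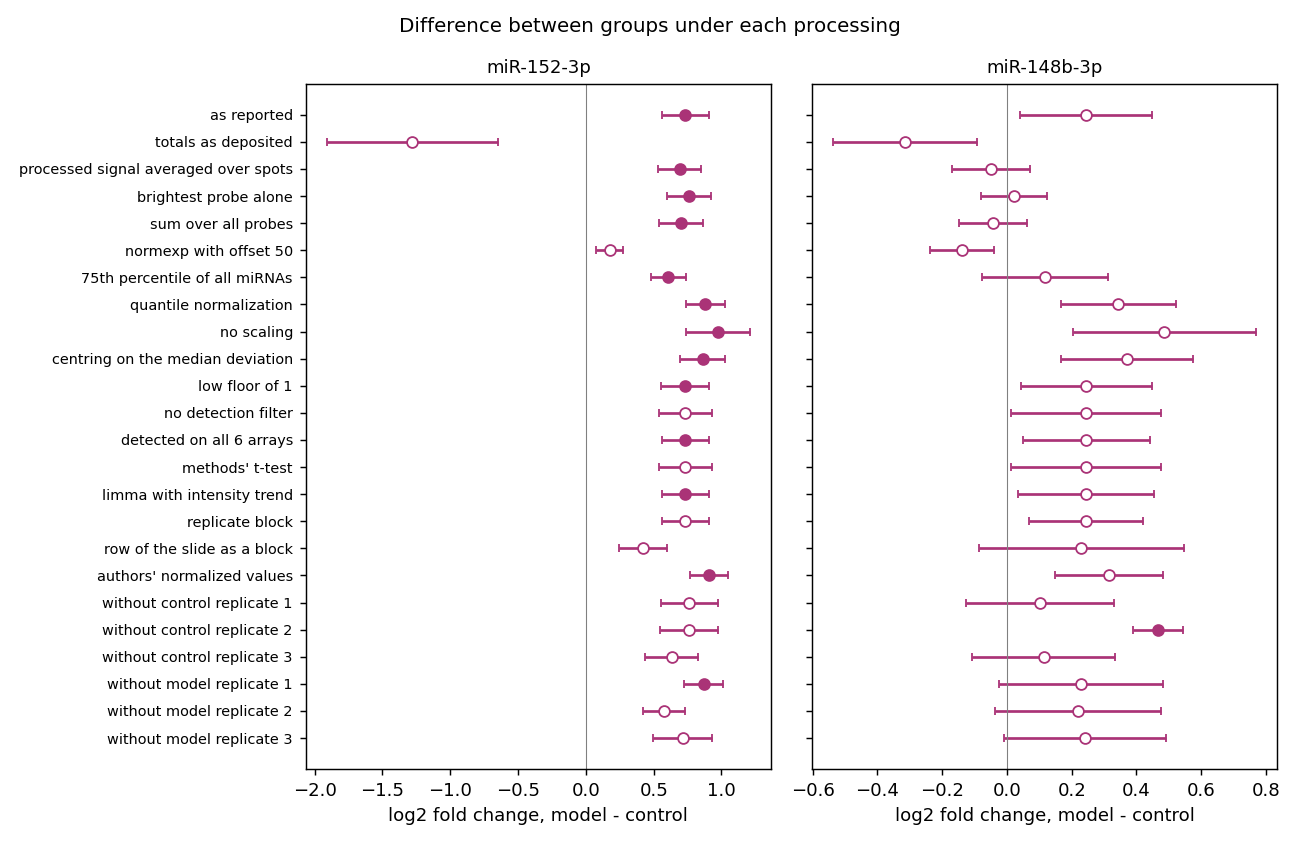
Log2 fold change of miR-152-3p and miR-148b-3p with standard errors under each processing, filled where the adjusted p was under 0.05. miR-152-3p lay above 0 except with the deposited totals at -1.28, and miR-148b-3p lay on both sides of 0, from -0.31 to 0.49.

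No miRNA of the miR-130 and miR-301 list passed the test. Of the 4 miR-130 and miR-301 miRNAs listed, miR-130a-3p and miR-301a-3p were detected on all 6 arrays, and miR-130b-3p and miR-301b-3p on none. miR-130a-3p read 342, 448 and 306 for the controls, against 512, 497 and 399 for the model arrays, with a log2 fold change of 0.13 after scaling (adjusted p = 0.289, limma). miR-301a-3p read 8.87, 16.1 and 7.23 for the controls, against 17.2, 11.3 and 9.85 for the model arrays, with a log2 fold change of 0.058 (adjusted p = 0.882). Among 8 miRNAs known for DNA methyltransferase targets, all 8 were compared and 1 was called, lower in the model group, beside 12.6% called lower among all 214. This was miR-126a-3p, better known from endothelium, which fell by 0.49 on the log2 scale (adjusted p = 0.0154, limma). It was lower under each of the other 5 scalings tried, by -0.61 to -0.25. The smallest fall (-0.25) was with no scaling, where it was not called. The miR-29 strands, which act on the de novo methyltransferases and on collagens, had log2 fold changes of -0.13 for miR-29a-3p, -0.17 for miR-29b-3p and -0.36 for miR-29c-3p, and the other 4 lay between -0.43 for miR-185-5p and 0.17 for miR-101b-3p. The median of the list was -0.22, beside -0.14 over all 214 miRNAs.

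The miRNAs most like miR-152-3p were sought among the 197 others detected on all 6 arrays, by the Euclidean distance between mean-centred log2 signals. The nearest were miR-497-5p at 0.27 log2 units, miR-125b-5p at 0.33, miR-195-5p at 0.35 and miR-511-3p at 0.39. Their correlations with miR-152-3p over the 6 arrays were 0.97, 0.99, 0.97 and 0.94, values that include the difference between the groups and the shared scaling. Their log2 fold changes were 0.67, 0.55, 0.51 and 0.83, and of the 4 only miR-195-5p was not called (adjusted p = 0.0626, limma). Among all 214 miRNAs, 22.9% were called. The distance takes in the difference between the groups, so the calls of the nearest miRNAs follow in part from how they were chosen. This holds for both members. For miR-148b-3p the nearest were miR-101b-3p at 0.34, miR-872-5p at 0.37, let-7i-5p at 0.39 and miR-324-5p at 0.44, none of which was called in limma. The relatives themselves were less alike. miR-148b-3p was 41st in order of distance from miR-152-3p, at 0.89, with a correlation of 0.50 over the 6 arrays. In the other direction, miR-152-3p was 100th from miR-148b-3p. These values rest on the sums of detected probes, which leave out the dimmer probe of miR-148b-3p on control arrays 1 and 3. They count the dimmer probe of miR-152-3p on model arrays 2 and 3 alone.

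Some markers of cell types in the tissue also differed between the groups. Among all 214 miRNAs compared, 10.3% were called higher and 12.6% lower. All 4 miRNAs of the fibroblast and matrix list (miR-21-5p, miR-199a-3p, miR-199a-5p and miR-214-3p) were higher in the model group in limma, and their summed signal, in units of each array's 75th percentile, was 3.85 to 4.74 on the control arrays and 10.2 to 14.4 on the model arrays. Of 6 cardiomyocyte miRNAs, 5 were compared and 3 fell (miR-1-3p, miR-133a-3p and miR-133b-3p), with sums of 114 to 138 and 60.9 to 85.1. The other members compared, miR-208a-3p and miR-499-5p, had log2 fold changes of -0.87 and -0.69 without being called (adjusted p = 0.0988 and 0.0929, limma). Both endothelial strands, miR-126a-3p and miR-126a-5p, fell, with sums of 8.16 to 9.17 and 5.98 to 6.66. Of 4 leukocyte miRNAs, 3 were compared and 1, miR-150-5p, fell. Log2 fold changes of miR-223-3p and miR-142-3p were 0.15 and -0.073 (adjusted p = 0.377 and 0.861, limma). The list summed to 2.08 to 2.36 in the control group against 1.48 to 1.79. Most of this sum was miR-150-5p, which on control array 1 read 239 before scaling, against 42.0 for miR-223-3p and 21.6 for miR-142-3p. Of 3 red blood cell miRNAs, 2 were compared and 1, miR-486, fell, while miR-451-5p had a log2 fold change of -0.53 (adjusted p = 0.132, limma), and the list summed to 1.79 to 2.10 against 1.13 to 1.43. The fibroblast and matrix miRNAs were higher under the other 5 scalings as well. The falls were smaller with no scaling, at -0.25 for miR-126a-3p, -0.35 for miR-126a-5p and -0.36 for miR-150-5p, and there limma called 0 miRNAs lower (4 at an unadjusted p under 0.05). For miR-1-3p and miR-133b-3p the log2 fold change was about 0 with quantile normalization, and -0.085 and -0.11 in the authors' values. On every array miR-133b-3p had the highest signal and miR-1-3p the next highest. Quantile normalization gives the same rank the same value on each array, so it cannot show whether these miRNAs fell. The smooth muscle miRNAs miR-143-3p and miR-145-5p each had a log2 fold change of -0.17 (adjusted p = 0.365 and 0.267, limma), above 0 with no scaling, with sums of 5.04 to 6.72 and 4.74 to 5.46. The markers miR-208b-3p, miR-142-5p and miR-144-3p were not detected on any array, nor were miR-122-5p of liver and miR-124-3p and miR-9a-5p of brain. The part of the makeup of the tissue in the difference of miR-152-3p was not tested.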

How the data were processed

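Total RNA of the myocardium of 3 control and 3 model rats was hybridized to 1 Agilent Rat miRNA array per rat. The authors deposited the output of Agilent Feature Extraction 10.7.1.1, whose intensity values had the background subtracted and no scaling between arrays, for 758 miRNAs in 12128 spots. They also deposited normalized log2 values, whose method is not given in the sources used here. The members and lists were chosen with earlier results of these data known. Signals were summed over probes whose total signal was over 3 times its error, scaled to each array's 75th percentile over 198 miRNAs that all 6 arrays detected, and floored at -6.50 on the log2 scale, the highest over arrays of the lowest detected scaled signal. A miRNA was kept where a whole group detected it, which left 214, and these were fitted in limma 3.58.1 (R 4.3.3) without covariates, with Benjamini-Hochberg adjustment at 0.05. The within-array ratio was compared with an exact permutation test. The number of arrays limits the precision. The fit was tested on simulated data. The miRNAs named are the members, the lists, the 4 nearest profiles of each member and the miRNAs whose signal enters its deposited total. The alternatives, including the methods' t-test, quantile normalization, normexp and leaving out each array, are given at the end. Figures used Python 3.11.15 and matplotlib 3.10.9.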

Additional observations from a re-analysis of the deposited data

How the results depend on the processing

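Of the 23 alternatives, 12 left miR-152-3p higher with an adjusted p under 0.05, 10 left it higher without passing, and 1, the totals as deposited, turned the log2 fold change to -1.28. It did not pass with normexp (0.18, an offset of 50 being added to every spot), with the slide row as a block (0.42, which is model array 1 alone against the controls), and, at an unchanged 0.73, with no detection filter, with the methods' t-test (adjusted p = 0.0836) and with the replicate block (adjusted p = 0.0895). With each array left out in turn it ran from 0.58 to 0.87. For miR-148b-3p the log2 fold change was below 0 with the totals as deposited (-0.31), the processed signal averaged over spots (-0.049), the sum over all probes (-0.042) and normexp (-0.14), none of which passed, and with each array left out it ran from 0.10 to 0.47. The change of miR-152-3p against miR-148b-3p was -0.97 with the totals as deposited. The number of miRNAs called, 49 of 214, was 19 with no scaling, 9 with no detection filter, 26 with the methods' t-test, 16 with the replicate block, 29 with the row as a block and 14 to 39 with each array left out, with 14, 26 and 27 without control array 1, 2 and 3. The split of 22 higher and 27 lower was 19 and 47 when the 75th percentile was taken over every miRNA, 23 and 16 with quantile normalization, 29 and 15 with centring on the median deviation, 23 and 14 with the authors' values and 35 and 1 with the totals as deposited, and with no scaling all 19 were higher. It was 12 and 2 without control array 1, 16 and 10 without control array 2, 13 and 14 without control array 3, 22 and 15 without model array 1 and 12 and 4 with the replicate block. Arrays with the same replicate number did not deviate together (correlations of -0.26, 0.032 and 0.24 across miRNAs), so the replicate block pairs them by number alone. Except where stated, the cause was not tested.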
